A study of Homo sapiens with 12 samples.

Results

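The collagen genes were taken as every row of the deposited raw count table whose symbol consists of COL, a type number, A and a chain number. The rule found 44 of the 28207 genes in the table. By the structure of the protein they make, 11 are fibrillar collagens, 6 are the type IV chains of basement membranes and 27 are other collagens. The libraries came from cerebral organoids, brain-like tissue grown in culture, made from the human embryonic stem cell line H1. There were 2 libraries of FEZ1-null (KO) organoids at day 60, 2 of wildtype (WT) organoids at day 60, 4 of KO organoids at day 10 and 4 of WT organoids at day 10. FEZ1 encodes an adaptor of kinesin motors, and the series asks how it acts on the specification and migration of neural progenitors. The labels give no other treatment or allele and leave unstated how many knockout clones were used. Separate cultures are not stated either, so the p-values measure only how these libraries vary, possibly for technical reasons. Each label starts with a code of unstated meaning. All day 60 libraries have the code B16, as do replicates 1 and 2 of both genotypes at day 10, where replicate 3 has B27 and replicate 4 has B29.

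Collagens are secreted or membrane proteins whose chains wind into a triple helix. Fibrillar collagens assemble into the rope-like fibrils of connective tissue and cartilage, type IV collagen forms the sheet-like network of basement membranes, and the other families coat fibrils, form beaded filaments or span the cell membrane. In the developing brain, type IV collagen lies in the pial and vascular basement membranes on which radial glial endfeet rest, while most fibrillar collagen is made by the meninges and by cells around vessels. Type III collagen is a ligand of the receptor ADGRG1 (GPR56) on neural progenitors and migrating neurons.

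The type IV genes lie in head-to-head pairs, each pair reading outward from a shared upstream region, and ratios between partners are given with the results. The regions of COL4A1 with COL4A2 and of COL4A5 with COL4A6 are shown because the results for basement membrane chains turn on these 4 genes. Sequences are from RefSeq on GRCh38.p14, run 5′ to 3′ on the named strand and hold bases before the start of transcription only. Capitals mark matches on either strand to the CCAAT box (CCAAT) and the GC box (GGGCGG). The stretch between the starts of COL4A1 and COL4A2 is 126 bases long, at chr13:110307158-110307283 on the plus strand, the strand of COL4A2. The 250 bases before COL4A5 lie at chrX:108439588-108439837 on the plus strand, and the 250 bases before COL4A6 at chrX:108439459-108439708 on the minus strand.
COL4A1-COL4A2: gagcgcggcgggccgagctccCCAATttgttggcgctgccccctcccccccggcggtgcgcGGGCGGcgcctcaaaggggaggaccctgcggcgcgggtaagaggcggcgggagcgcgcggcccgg
COL4A5: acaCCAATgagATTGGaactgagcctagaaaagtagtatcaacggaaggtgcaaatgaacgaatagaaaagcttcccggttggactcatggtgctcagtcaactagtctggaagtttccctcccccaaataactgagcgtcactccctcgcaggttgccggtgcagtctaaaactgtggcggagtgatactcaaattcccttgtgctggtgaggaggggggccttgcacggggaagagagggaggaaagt
COL4A6: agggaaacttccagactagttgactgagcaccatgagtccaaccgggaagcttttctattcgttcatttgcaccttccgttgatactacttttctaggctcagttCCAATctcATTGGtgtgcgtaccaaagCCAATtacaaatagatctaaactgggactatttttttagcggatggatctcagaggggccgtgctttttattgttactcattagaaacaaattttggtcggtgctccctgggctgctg
The COL4A1-COL4A2 stretch has 80.2% G and C, against a median of 60.3% over the 126 bases before the start of the 35116 promoters in the table, and holds 1 CCAAT box and 1 GC box, which do not overlap. A CCAAT box is found in 21.1% and a GC box in 34.6% of promoter windows of that length. The regions before COL4A5 and COL4A6 have 51.2% and 44.0% G and C, against a median of 58.0% over windows of 250 bases. They hold 2 and 3 CCAAT boxes, found in 32% of such windows, and no match to GGGCGG, found in 42.6%. None of the 3 regions matches the TATA box (TATAAA), which occurs in 5.87% of windows of 126 bases and 10.7% of windows of 250 bases. The starts of COL4A5 and COL4A6 are 379 bases apart, so their windows share bases, and those of COL4A3 and COL4A4 are 418 bases apart. Both CCAAT boxes before COL4A5 lie in the shared bases and are the same as the first 2 before COL4A6, so the 2 windows hold 3 separate boxes.

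Library totals ranged from 15.7 M to 22.7 M counts, and collagens took 0.210% to 0.671% of them. Of the 44 collagen genes, 41 passed the filter on low counts, 10 fibrillar, 6 basement membrane and 25 other. The 3 that did not pass were COL10A1, the type X chain of hypertrophic cartilage, with at most 8 counts in a library, the fibrillar COL24A1 with at most 9 and the beaded filament gene COL6A5 with at most 2. FEZ1 stood at 47.6 and 48.4 CPM (counts per M counts of the library, corrected for composition) in KO and 239.9 and 197.4 CPM in WT at day 60. At day 10 it stood at 22.7, 20.2, 20.02 and 19.4 CPM in KO and 40.5, 43.3, 45.5 and 49.0 CPM in WT. FEZ1 fell in KO on both days. Its log2 fold change with SE was -2.19 ± 0.16 for day 60, with an adjusted p of 0.000335, and -1.11 ± 0.11 for day 10, with an adjusted p of 0.00153. All adjusted p-values are from edgeR's quasi-likelihood test over the 17757 genes that passed the filter, and a gene with a value below 0.05 is called.

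Levels differed widely between collagen genes and between days. Per kilobase of exon, the highest collagen at day 10 was COL2A1, the type II chain of cartilage and notochord, at 92.3 ± 23.7 CPM per kb in KO and 87.6 ± 4.38 CPM per kb in WT (SD, n = 4 each). COL18A1, a multiplexin of basement membranes, and COL6A1, a chain of beaded filaments, came next in both genotypes. At day 60, COL6A1 was highest in KO at 59.4 ± 5.41 CPM per kb, followed by COL3A1, the type III chain, at 31.2 ± 3.77 CPM per kb (n = 2). The length is the union of all annotated exons, 6811 bases for COL3A1 and 11156 for COL1A2, and ranks depend on it. Undivided, COL1A2 was above COL3A1 in these KO libraries, with 3555 and 5270 counts against 3433 and 4538. In WT at day 60, COL3A1 was highest at 178 ± 120 CPM per kb, followed by COL6A1 at 81.0 ± 21.2 CPM per kb (n = 2). COL3A1 was the higher in both WT libraries, at 93.1 and 263 CPM per kb against 66.0 and 96.0 for COL6A1. This order was not tested.

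**Figure D1:**
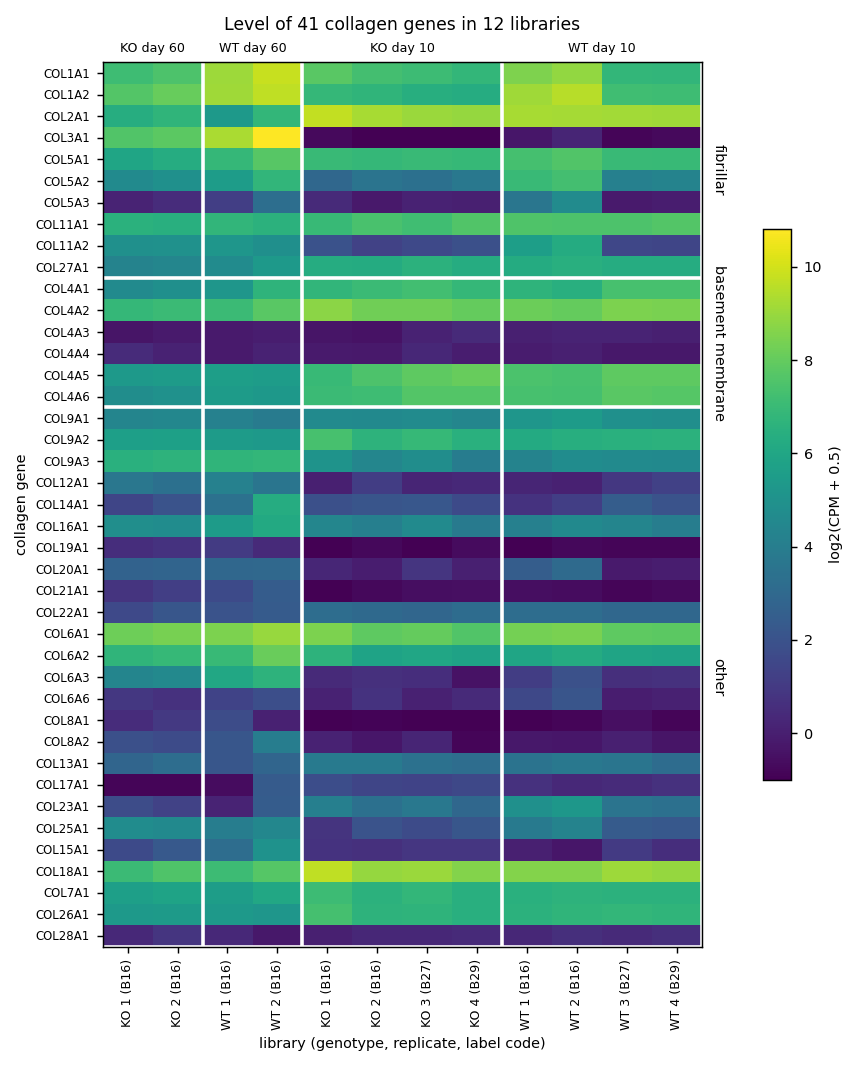
Heatmap of log2(CPM + 0.5) of the 41 collagen genes that passed the filter (rows, by class) in 12 libraries (columns, by group, with replicate and label code). COL3A1 is near the floor in all day 10 libraries and highest in WT replicate 2 at day 60, and COL2A1 is high in all day 10 libraries.

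Summed over the class, fibrillar collagens had 845 and 1031 CPM in KO and 2120 and 4116 CPM in WT at day 60. At day 10 their sum ran from 1090 to 1515 CPM in KO and from 1231 to 2526 CPM in WT. The lower WT library at day 60 was above both KO libraries, and at day 10 the WT libraries with code B16, at 2150 and 2526 CPM, were above every KO library. The type IV chains summed to 211 and 235 CPM in KO and 261 and 410 CPM in WT at day 60. At day 10 they summed to 758 to 888 CPM in KO and 669 to 972 CPM in WT, so every day 60 library was below every day 10 library. The other collagens summed to 904 and 1040 CPM in KO and 1067 and 1630 CPM in WT at day 60, with both KO libraries below both WT libraries. At day 10 they summed to 990 to 1859 CPM in KO and 1180 to 1305 CPM in WT, where the genotypes overlapped. The share of all collagen counts held by fibrillar genes was 43.9% ± 1.11 in KO and 64.2% ± 3.81 in WT at day 60 (SD, n = 2 each), and 36.6% ± 2.28 in KO and 45.4% ± 10.7 in WT at day 10 (SD, n = 4 each).

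**Figure D2:**
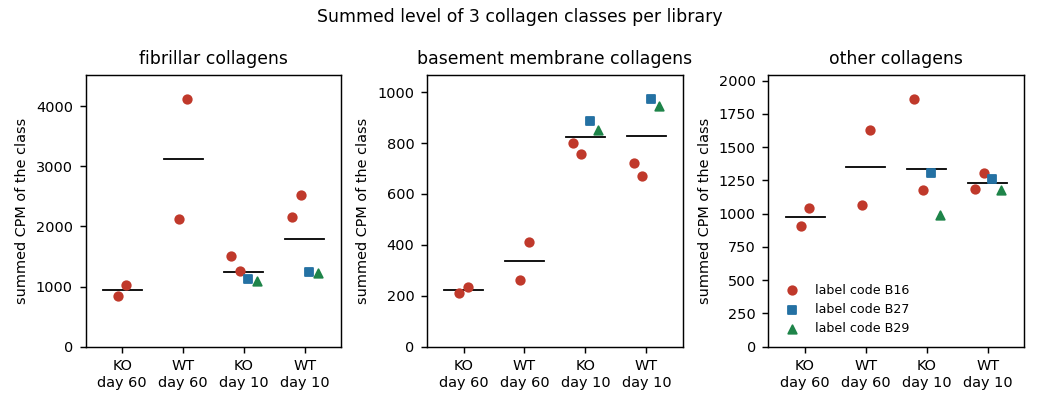
Summed CPM of fibrillar, basement membrane and other collagens per library (points, by label code) and group mean (line). Basement membrane sums are at most 410 CPM at day 60 and at least 669 CPM at day 10, and fibrillar sums are highest in WT at day 60.

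The comparison of day 60 with day 10 within each genotype asks how collagen expression changed as the organoids grew. In KO, 12 collagen genes rose and 15 fell, 27 of 41 or 65.9%, where 57.6% of all genes tested were called (30.7% rose and 26.9% fell). In WT, 13 rose and 14 fell, again 27 of 41, where 55.4% of all genes were called (29.3% rose and 26.1% fell). Of these calls, 9 rises and 12 falls were shared, 77.8% of either list, and none was opposite. All day 60 libraries carry code B16, so the comparison was repeated within B16, where the 27 calls of each genotype were kept in the same direction, with 30 calls in KO (63.4% of all genes, 33.6% higher and 29.8% lower) and 29 in WT (58.4%, 29.9% higher and 28.5% lower). The median log2 fold change was 0.29 in KO and 0.10 in WT, against 0.03 and -0.01 over all genes tested. Marker genes of cell types moved between the days as well. Of 7 neuron markers, 7 rose in KO and 3 in WT, and of 9 mesenchyme markers other than collagens, 7 rose and 1 fell in either genotype. The mesenchyme list summed to 187 and 221 CPM in KO at day 60, below the 262 to 301 CPM in KO at day 10. In WT it summed to 301 and 700 CPM at day 60 and 239 to 291 CPM at day 10. The surface epithelium list summed to 20.4 and 22 CPM in KO at day 60 and 380 to 729 CPM in KO at day 10, where 4 of its 5 tested members fell. In WT it summed to 20.4 and 257 CPM at day 60 and 249 to 476 CPM at day 10, where 1 member rose and 1 fell. Of 7 neural crest markers, 2 fell in KO and 7 in WT, and none rose. Of 6 endothelial markers, 1 rose and 2 fell in KO, and 3 rose and 1 fell in WT. Their part in the collagen values was not tested, and in bulk RNA, fewer cells of a type and less RNA per cell cannot be told apart.

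Among fibrillar genes, COL3A1, whose fibrils accompany type I in soft tissue, appeared between the days. It had 194 and 231 CPM in KO at day 60, against 1 KO library at 0.12 CPM and the other 3 at 0 at day 10. In WT it had 634 and 1792 CPM at day 60, against 0.31, 0.68, 0.05 and 0.11 CPM at day 10. Every day 60 library was far above every day 10 library. By counts the ratio of day 60 to day 10 was 7524 in KO (exact 95% interval 2082 to 62143, from 7971 and 2 counts) and 4179 in WT (2785 to 6593, from 47702 and 23 counts), intervals that cover counting error only.

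COL2A1 fell in both genotypes. It had 82.3 and 104 CPM in KO at day 60, against 837, 617, 520 and 487 CPM at day 10. In WT it had 41.05 and 112 CPM at day 60, against 623, 585, 571 and 555 CPM at day 10. The log2 fold change was -2.72 ± 0.37 in KO (adjusted p 9.89e-05) and -2.93 ± 0.38 in WT (adjusted p 6.88e-05), with no overlap between days. COL11A1, a minor chain of cartilage fibrils, fell by less, with log2 fold changes of -0.82 ± 0.18 in KO and -0.89 ± 0.18 in WT. COL27A1, a fibrillar chain of cartilage, also fell, with log2 fold changes of -2.06 ± 0.20 in KO and -1.26 ± 0.19 in WT. COL5A1, a type V chain that starts type I fibrils, fell in KO (-0.80 ± 0.25, adjusted p 0.0165), with a value of 0.10 ± 0.24 in WT (adjusted p 0.741). COL1A1, the main type I chain, rose in WT (1.45 ± 0.52, adjusted p 0.0352), with a value of 0.04 ± 0.54 in KO (adjusted p 0.955), and lost its call in WT in 4 of the 12 fits that left out 1 library.

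COL11A2, another minor chain of cartilage fibrils, depended on the label code. It rose in KO (3.44 ± 1.07, adjusted p 0.0166) and had 0.02 ± 1.05 in WT (adjusted p 0.991) over all day 10 libraries. Within B16 it rose in KO (3.48 ± 0.28, adjusted p 2.62e-06) and fell in WT (-0.93 ± 0.24, adjusted p 0.00633). It was the single collagen with opposite calls within B16. The WT fall lost its call in 1 of the 12 fits that left out 1 library.

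The basement membrane genes that were called all fell. COL4A6, an alternative type IV chain of smooth muscle and epithelial basement membranes, had 27.1 and 30.6 CPM in KO at day 60, against 131, 142, 199 and 203 CPM at day 10. In WT it had 44.1 and 38.2 CPM at day 60, against 163, 159, 218 and 205 CPM at day 10. The 2 days did not overlap, and the log2 fold change was -2.55 ± 0.24 in KO (adjusted p 7.06e-06) and -2.18 ± 0.23 in WT (adjusted p 1.83e-05). Its partner COL4A5 fell (log2 fold change -2.23 ± 0.29 in KO and -2.09 ± 0.29 in WT). Of the ubiquitous pair, COL4A2 fell, with log2 fold changes of -1.41 ± 0.26 in KO (adjusted p 0.000779) and -0.80 ± 0.25 in WT (adjusted p 0.0185). The WT call was lost in 1 of the 12 fits that left out 1 library. Within B16 the WT value was -0.59, between -1.03 and -0.28 with 1 library left out, and its call was lost in 9 of the 12. COL4A1 fell in KO (-2.24 ± 0.40, adjusted p 0.000656) and had -0.91 ± 0.37 in WT (adjusted p 0.0579). COL4A3 and COL4A4, chains of the glomerular basement membrane, stayed between 0.235 and 0.849 CPM in all libraries and were not called in either genotype.

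Of the beaded filament genes, COL6A3, the large type VI chain, had 20.03 and 22.8 CPM in KO at day 60, against 0.814, 1.03, 0.970 and 0.257 CPM at day 10. In WT it had 68.0 and 98.2 CPM at day 60, against 1.74, 3.28, 1.03 and 1.08 CPM at day 10. It rose in both, by 4.76 ± 0.46 in KO (adjusted p 7.85e-06) and 5.53 ± 0.44 in WT (adjusted p 2.18e-06), with no overlap between days. Its partner chain COL6A1 was already high at day 10 and was not called, with 0.29 ± 0.25 in KO (adjusted p 0.346) and 0.61 ± 0.25 in WT (adjusted p 0.0564). COL6A2 rose in WT (1.65 ± 0.29, adjusted p 0.000549), with 0.71 ± 0.29 in KO (adjusted p 0.0573). Both short-chain network genes that passed the filter, which form lattices around vessels and under the corneal endothelium, rose in both genotypes. COL8A2 rose by 2.84 ± 0.61 in KO and 4.72 ± 0.60 in WT, and COL8A1 had 44 counts in the 2 KO libraries at day 60 and 1 count in the 4 at day 10, a ratio by CPM of 83.1 (exact 95% interval 14.2 to 3355).

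Among fibril-associated collagens, which bind the surface of fibrils, COL9A3, COL12A1, COL19A1 and COL21A1 rose and COL9A2 and COL22A1 fell in both genotypes. COL9A3, a type IX chain bound to type II fibrils, had 90.5 and 100.3 CPM in KO at day 60, against 32.5, 20.7, 27 and 14.9 CPM at day 10. In WT it had 107 and 113 CPM at day 60, against 18.7, 26.3, 24.4 and 23.6 CPM at day 10. It rose by 2.01 ± 0.24 in KO and 2.24 ± 0.24 in WT, while COL9A2, a chain of the same trimer, fell (log2 fold change -1.23 ± 0.23 in KO and -1.02 ± 0.23 in WT). COL12A1, bound to type I fibrils, rose by 3.55 ± 0.49 in KO and 3.68 ± 0.48 in WT. The other chain of the type IX trimer, COL9A1, fell in WT (-1.10 ± 0.20, adjusted p 0.000781), with -0.16 ± 0.19 in KO (adjusted p 0.507). COL14A1, bound to type I fibrils, rose in WT (3.95 ± 0.67, adjusted p 0.000443), with -0.22 ± 0.72 in KO (adjusted p 0.809). COL16A1, a minor fibril-associated chain, rose in WT (1.61 ± 0.25, adjusted p 0.000271), with 0.49 ± 0.26 in KO (adjusted p 0.128). COL20A1 rose in KO (3.09 ± 0.92, adjusted p 0.0128), with 1.06 ± 0.86 in WT (adjusted p 0.313), and its call in KO was lost with a label code term in the model.

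Of the 2 multiplexins, COL18A1, the source of endostatin, fell (log2 fold change -1.79 ± 0.31 in KO and -1.41 ± 0.30 in WT), and COL15A1, found where basement membranes meet connective tissue, rose by 1.5 ± 0.54 in KO and 4.64 ± 0.54 in WT. The COL15A1 call in KO was lost in 5 of the 12 fits that left out 1 library. In GENCODE, 16.4% of the exon bases of COL18A1 are shared with SLC19A1 on the opposite strand, and the strand setting of the counting is not given. Among the transmembrane collagens, COL23A1 fell in both genotypes, and COL13A1, found at neuromuscular junctions, fell in WT (-1.03 ± 0.28, adjusted p 0.00897), with -0.60 ± 0.27 in KO (adjusted p 0.0824). COL17A1, which anchors basal epithelial cells, fell in KO to 2 counts at day 60, against 172 at day 10, 45.6-fold lower (exact 95% interval 12.4 to 379), and was not called in WT (1.33 ± 0.72, adjusted p 0.14). COL25A1, made by neurons and found in amyloid plaques, rose in KO (3.13 ± 0.55, adjusted p 0.000559) and had 0.84 ± 0.54 in WT (adjusted p 0.208). COL7A1, which forms anchoring fibrils, fell (log2 fold change -0.99 ± 0.20 in KO and -0.72 ± 0.20 in WT), and COL26A1 by -1.44 ± 0.23 in KO and -1.45 ± 0.23 in WT.

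At day 10 the genotypes were compared over 4 libraries each. No collagen gene was called (0 of 41, where 0.124% of all genes were), although 10 had an unadjusted p below 0.05, as did 12.3% of all genes. DESeq2, which called 2.82% of all genes, called 5, all lower in KO: COL1A2, COL5A2, COL5A3, COL11A2 and COL25A1. The authors' deposited table of FEZ1-null against WT, whose header names no day, lists the same 5 with an adjusted p below 0.05 and a log2 fold change of -2.93 for COL5A2, close to the day 10 value here. In 4 genes every KO library was below every WT library (COL1A2, COL5A2, COL25A1 and COL9A1, where 2.67% of all genes did so), and in COL17A1 every KO library was above (2.33%). The median log2 fold change was -1.41 over the 10 fibrillar genes, -0.01 over the 6 basement membrane genes and 0.00 over the 25 others, against -0.01 over all genes tested. The WT libraries with code B16 were the highest of the 8 for COL1A2, COL5A2, COL5A3, COL11A2, COL20A1 and COL25A1.

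COL1A2, the other type I chain, had 117, 104, 84.1 and 78.3 CPM in KO. In WT it had 551 and 739 CPM with code B16 and 146 and 139 CPM with the other codes. All WT libraries were above all KO libraries, and the log2 fold change was -2.04 ± 0.49 (p 0.00156, adjusted p 0.225). COL5A2, a type V chain of type I fibrils, had 7.10, 11.3, 9.77 and 12.9 CPM in KO, against 127 and 157 CPM in B16 WT libraries and 17.4 and 19.1 CPM in the other WT libraries. Its log2 fold change was -2.96 ± 0.69 (adjusted p 0.221), again with no overlap. COL11A2 had 3.49, 2.02, 2.55 and 3.15 CPM in KO, against 49.1 and 75.7 CPM in B16 WT libraries and 2.36 and 2.22 CPM in the other WT libraries (-3.53 ± 0.98, adjusted p 0.226). Here the WT libraries without B16 lay among the KO libraries. COL5A3, a rarer type V chain, had the same order, with 0.814, 0.376, 0.607 and 0.515 CPM in KO, 11.8 and 25.3 CPM in B16 WT libraries and 0.411 and 0.456 CPM in the others.

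**Figure D3:**
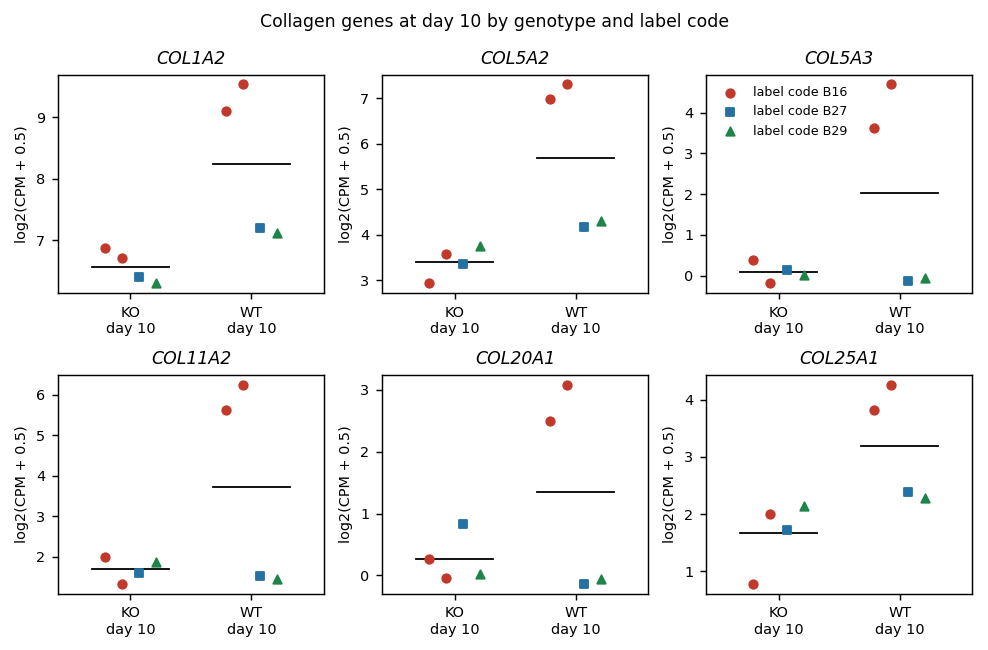
log2(CPM + 0.5) of 6 collagen genes in KO and WT libraries at day 10 (points, by label code, with the group mean as a line). WT libraries with code B16 are the highest in each of the 6 panels, and WT libraries with B27 and B29 lie near or among the KO libraries.

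Within WT at day 10, the 2 libraries with B16 were compared with the 2 carrying B27 and B29. Of 41 collagen genes, 8 were higher with B16 and 0 lower, where 16.8% of all genes were called and 10.8% were higher. An unadjusted p below 0.05 was found in 16 of them, as in 30.2% of all genes. DESeq2 called 9 higher and 2 lower, where it called 18.7% of all genes in either direction. The 8 were the fibrillar COL5A3 (5.40 ± 0.77), COL11A2 (4.76 ± 0.30), COL5A2 (2.96 ± 0.38), COL1A2 (2.18 ± 0.21) and COL1A1 (1.91 ± 0.26), and the others COL20A1 (3.90 ± 0.41), COL6A6 (2.59 ± 0.44) and COL25A1 (1.83 ± 0.36). Within KO the same contrast called 1 collagen, COL4A6, lower with B16 (-0.56 ± 0.12, adjusted p 0.0420, where 3.01% of all genes were called and 0.310% were lower). The COL4A6 call was lost in 10 of the 12 fits that left out 1 library.

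KO was therefore compared with WT separately within the codes. Within B16, 11 collagen genes were called (19.0% of all genes were), 10 lower (11%) and 1 higher (8.0%) in KO. The lower genes were COL5A3 (-4.98 ± 0.74), COL11A2 (-4.52 ± 0.29), COL5A2 (-3.94 ± 0.40), COL20A1 (-3.49 ± 0.39), COL25A1 (-2.73 ± 0.38), COL1A2 (-2.54 ± 0.22), COL6A6 (-1.81 ± 0.41), COL6A3 (-1.41 ± 0.44), COL1A1 (-1.16 ± 0.26) and COL9A1 (-0.75 ± 0.16). COL9A2 was higher (0.74 ± 0.22), and its call, like that of COL6A3, was lost in 7 of the 12 fits that left out 1 library. This contrast and the one between codes in WT share the B16 WT libraries. Within B27 and B29, edgeR called 0 collagen genes, where it called 0.0507% of all genes, and DESeq2 called 0, where it called 0.208%. By edgeR, 2 of 41 collagen genes had an unadjusted p below 0.05, against 3.60% of all genes. They were COL1A2 (-0.81 ± 0.21, p 0.00275) and COL12A1 (-1.20 ± 0.50, p 0.0363).

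The difference of the genotype effect between the codes, B16 minus the others, was called for 6 collagen genes, all more negative with B16, where 5.95% of all genes were called and 4.44% were more negative. These were COL11A2, COL20A1, COL5A2, COL1A2, COL25A1 and COL5A3, 4 of them fibrillar and none of them type IV. Of the basement membrane genes, the smallest p within B16 belonged to COL4A3 (-1.13 ± 0.45, p 0.0303, adjusted p 0.106). In the same WT B16 libraries, the 7 genes of a neural crest list, 6 of which had lower values in KO than in WT over all libraries, summed to 865 and 1246 CPM, against 134 to 196 CPM in KO at day 10 and 131 and 121 CPM in the other WT libraries. SOX10, the transcription factor of migrating crest and glia, had 184 and 278 CPM there and 4.84 to 11.3 CPM in KO, and FOXD3 was at 0 in 1 KO library. The neuron list summed to 1858 and 2141 CPM in them, against 435 to 834 CPM in KO and 454 and 471 CPM in the other WT libraries. The cartilage list without collagens summed to 23.9 and 29 CPM, against 7.64 to 11.8 CPM in KO, with EPYC at 0 in all WT libraries at day 10. The part of these cells in the collagen values was not tested.

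At day 60 the genotypes were compared over 2 libraries each. No collagen gene was called by edgeR (0 of 41, where 0.0225% of all genes were), 14 had an unadjusted p below 0.05, against 5.60% of all genes. DESeq2, which called 0.749% of all genes, called 6, all lower in KO: COL1A1, COL5A1, COL6A3, COL14A1, COL15A1 and COL17A1. The 14 genes all had lower values in KO, 5 fibrillar, 1 basement membrane and 8 other. In 25 of 41 collagens (61.0%) both KO libraries were below both WT libraries, as in 22.4% of all genes, and in 5 (12.2%) both were above, as in 24.1% of all genes. The 25 were 8 of 10 fibrillar, 5 of 6 basement membrane and 12 of 25 other genes. The median log2 fold change was -1.37 for fibrillar, -0.42 for basement membrane and -0.33 for other collagens, against -0.01 over all genes tested.

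**Figure D4:**
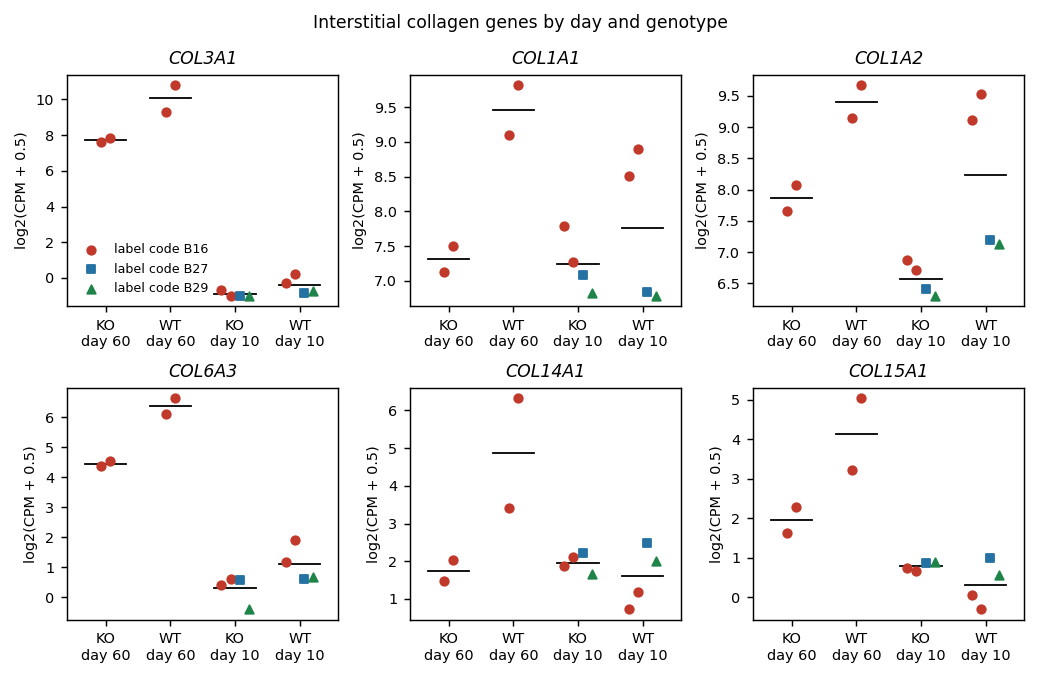
log2(CPM + 0.5) of 6 collagen genes of connective tissue by group (points, by label code, with the group mean as a line). In each panel both KO libraries at day 60 lie below both WT libraries at day 60, and WT replicate 2 at day 60 is the highest of all 12 libraries.

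Of the fibrillar genes, COL3A1 had 194 and 231 CPM in KO and 634 and 1792 CPM in WT, with a log2 fold change of -2.51 ± 0.53 (p 0.000541, adjusted p 0.307). COL1A1 had 139 and 181 CPM in KO and 548 and 901 CPM in WT (-2.18 ± 0.66, adjusted p 0.485). COL1A2 had 201 and 268 CPM in KO and 564 and 816 CPM in WT (-1.56 ± 0.68, adjusted p 0.858). The 3 main chains of connective tissue fibrils were thus lower in both KO libraries, and none passed the test. COL5A1 had 61.8 and 78.6 CPM in KO and 116 and 210 CPM in WT (-1.21 ± 0.28, adjusted p 0.362). COL2A1 differed from these, with 82.3 and 104 CPM in KO between 41.05 and 112 CPM in WT.

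Of the basement membrane genes, COL4A1 had 24.8 and 29.3 CPM in KO and 36.5 and 100.5 CPM in WT (-1.34 ± 0.42, p 0.00867, adjusted p 0.50). COL4A2 had 116 and 130 CPM in KO and 132 and 224 CPM in WT, and COL4A6 had 27.1 and 30.6 CPM in KO and 44.1 and 38.2 CPM in WT. COL4A4 was the type IV gene with both KO libraries above both WT libraries, at levels below 1 CPM. Among the others, COL6A3 had 20.03 and 22.8 CPM in KO and 68.0 and 98.2 CPM in WT (-1.96 ± 0.49, adjusted p 0.389). COL14A1 had 2.26 and 3.61 CPM in KO and 10.1 and 79.3 CPM in WT (-3.92 ± 0.87, adjusted p 0.337). COL15A1 had 2.60 and 4.37 CPM in KO and 8.91 and 32.3 CPM in WT (-2.56 ± 0.64, adjusted p 0.389). In both, WT replicate 2 was the higher WT library. COL17A1 had 2 counts over the KO libraries and 96 over the WT libraries, nearly all in WT replicate 2, where it stood at 4.69 CPM against 0.156 CPM in WT replicate 1, and was 46.0-fold lower in KO by counts (exact 95% interval 12.4 to 385, covering counting error only). Its fitted log2 fold change was -5.34 with all libraries and -1.44 without WT replicate 2.

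WT replicate 2 at day 60 was the highest of the 4 libraries for COL3A1, COL1A1, COL1A2 and COL4A1. Without it, no collagen was called, and the log2 fold change was -1.58 for COL3A1, -1.78 for COL1A1, -1.27 for COL1A2, -0.72 for COL5A1, -1.67 for COL6A3, -0.43 for COL4A1, -1.78 for COL14A1 and -1.35 for COL15A1. Without WT replicate 1, 7 were called, where 1.94% of all genes were, all lower in KO, namely COL3A1, COL4A1, COL5A1, COL14A1, COL15A1, COL17A1 and COL27A1; each of these fits takes the remaining WT library to vary like the other groups. The endothelial list of 7 genes summed to 30.0 and 30.2 CPM in KO and to 17.0 and 171 CPM in WT, and 6 of 6 tested members had lower values in KO. Its member CDH5 had 0.113 and 0.152 CPM in KO and 0.573 and 21.2 CPM in WT. Another member, KDR, had 381 and 421 counts in KO, against 106 in WT replicate 1 and 1042 in WT replicate 2. The lower KDR value in KO therefore rested on WT replicate 2. TIE1 had 17 and 23 counts in KO, against 20 in WT replicate 1 and 602 in WT replicate 2. ESAM had 3 and 10 counts in KO, against 6 and 291 in the same WT libraries. For both genes WT replicate 1 lay between the KO libraries, so their lower KO values also rested on WT replicate 2. The mesenchyme and fibroblast list without collagens summed to 187 and 221 CPM in KO and 301 and 700 CPM in WT, with lower values in KO for 9 of 9 members. The surface epithelium list summed to 20.4 and 22 CPM in KO and 20.4 and 257 CPM in WT. Its member KRT14, under the filter, had 0 counts in both KO libraries and 0 and 1 in WT. The choroid plexus list summed to 7.53 and 11.2 CPM in KO and 10.7 and 45.6 CPM in WT. The mesenchyme sum of WT replicate 1 was also above both KO libraries, as were its COL3A1, COL1A1, COL1A2 and COL6A3 levels. The part of these cell types in the collagen values was not tested.

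The interaction of genotype and day asked whether the genotype effect differed between the days. No gene of any kind was called (0%), 10 collagen genes had an unadjusted p below 0.05, against 7.15% of all genes, and DESeq2, which called 0.377% of all genes, called 3, COL14A1, COL15A1 and COL17A1. The smallest p-values among collagens were those of COL17A1 (-6.67 ± 1.41, p 0.000542), COL14A1 (-4.17 ± 1.02, p 0.00168) and COL15A1 (-3.14 ± 0.80, p 0.00224), with adjusted p 0.520 for each. With B16 libraries only, where 5.15% of all genes were called, edgeR called 6 collagens, COL11A2 (4.41), COL20A1 (3.27), COL25A1 (3.17), COL5A2 (2.41) and COL9A1 (1.14) with a more positive day change in KO and COL14A1 (-5.18) with a more negative one. Over all libraries, edgeR thus called no difference between genotypes for any collagen called in 1 genotype alone between days. As no gene of any kind was called, this does not show that their day changes were equal. With B16 libraries only, no difference was called for COL1A1, COL4A1, COL5A1, COL6A2, COL13A1, COL16A1 and COL17A1.

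Partner chains of the same trimer were compared as ratios per kilobase of exon, without a test. The size of a ratio depends on the exon lengths used, while its fold change between libraries does not. COL1A1 over COL1A2 was 0.787 and 0.766 in KO and 1.102 and 1.25 in WT at day 60. At day 10 it was 2.14, 1.68, 1.82 and 1.63 in KO and 0.747, 0.733, 0.885 and 0.896 in WT. The genotypes did not overlap on either day, with KO lower at day 60 and higher at day 10, and at day 10 all label codes of a genotype lay together. With 2 libraries per group at day 60, such separation is common. Levels of 22.4% of all genes were lower and 24.1% higher in both KO libraries. The other ratios given below also separated the genotypes at day 60, and overlapped at day 10. In most type I collagen, COL1A1 chains outnumber COL1A2 chains within the trimer. COL4A1 over COL4A2 was 0.279 and 0.295 in KO and 0.362 and 0.588 in WT at day 60, against 0.331 to 0.649 in KO and 0.442 to 0.621 in WT at day 10. COL4A5 over COL4A6 was 1.20 and 1.13 in KO and 0.859 and 0.946 in WT at day 60, against 0.732 to 1.04 in KO and 0.812 to 0.885 in WT at day 10. Over all libraries the COL4A1 ratio lay between 0.279 and 0.649 and the COL4A5 ratio between 0.732 and 1.20. COL6A1 over COL6A3 was 54.5 and 54.6 in KO and 19.0 and 19.2 in WT at day 60, against 824 to 2785 in KO and 391 to 849 in WT at day 10.

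**Figure D5:**
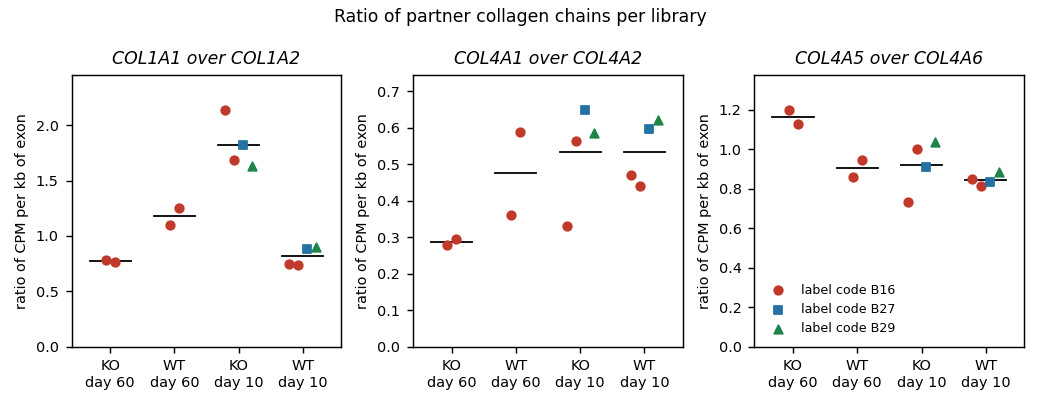
Ratio of CPM per kb of exon between partner chains per library (points, by label code, with the group mean as a line; axes start at 0). COL1A1 over COL1A2 separates KO (1.63 to 2.14) from WT (0.733 to 0.896) at day 10 in all label codes, and the type IV ratios lie between 0.279 and 1.20.

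Genes that make, process, bind and degrade collagen were read from 5 lists. The 21 genes of collagen modification and folding had 4 rises and 11 falls in KO and 1 rise and 10 falls in WT between day 60 and day 10. Over all genes tested, 30.7% rose and 26.9% fell in KO, and 29.3% rose and 26.1% fell in WT. P4HA1, a prolyl hydroxylase subunit that stabilises the triple helix, fell (log2 fold change -1.98 ± 0.18 in KO and -2.17 ± 0.18 in WT), while its relative P4HA3 rose by 5.38 ± 0.81 in KO and 5.48 ± 0.65 in WT. Of 15 genes of processing and cross-linking, 2 rose and 6 fell in KO, and 5 rose and 4 fell in WT. ADAMTS3, a procollagen protease, rose by 2.38 ± 0.29 in KO and 2.78 ± 0.29 in WT, and PCOLCE2, an enhancer of procollagen cleavage, fell (log2 fold change -3.02 ± 0.29 in KO and -3.03 ± 0.29 in WT). Of 10 collagen receptors tested, 5 rose and 2 fell in KO, and 7 rose and 1 fell in WT. ADGRG1, the receptor of type III collagen, had 251 and 269 CPM in KO and 281 and 233 CPM in WT at day 60, against 89.5 to 119 CPM in KO and 89.6 to 94.8 CPM in WT at day 10. It rose in both genotypes, as COL3A1 did, by 1.41 ± 0.14 in KO and 1.49 ± 0.14 in WT. Of 8 degradation genes tested, 1 rose and 4 fell in KO, and 1 rose and 1 fell in WT, with the gelatinase MMP2 falling, with log2 fold changes of -3.35 ± 0.47 in KO and -1.30 ± 0.41 in WT.

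The 15 other basement membrane genes had 4 rises and 6 falls in KO and 7 rises and 6 falls in WT between the days, where over all genes 30.7% rose and 26.9% fell in KO and 29.3% rose and 26.1% fell in WT. LAMA1, the laminin chain of embryonic basement membranes, fell (log2 fold change -2.67 ± 0.22 in KO and -2.70 ± 0.23 in WT), while the epithelial LAMA3 rose by 2.72 ± 0.31 in KO and 2.97 ± 0.31 in WT. Between genotypes, edgeR called 0 members of the 5 lists at either day. In the order above, 21, 15, 10, 8 and 15 members were tested. Of these, 6, 6, 1, 3 and 1 had an unadjusted p below 0.05 at day 10, against 12.3% of all genes. At day 60 the numbers were 0, 2, 2, 3 and 8, against 5.60% of all genes. At day 60, 14 of these 15 genes had lower values in KO with a median log2 fold change of -1.21, against -0.01 over all genes, and NID2, a nidogen that links laminin to type IV collagen, had 4.13 and 5.39 CPM in KO and 13.1 and 28.8 CPM in WT (-2.13 ± 0.45, adjusted p 0.307). Within B16 at day 10, the called members included LOX (-2.04 ± 0.28), a cross-linking enzyme, MMP14 (-2.52 ± 0.27), a membrane collagenase, PLOD2 (-1.84 ± 0.28), a lysyl hydroxylase, and LAMA4 (-1.56 ± 0.40), a laminin of vessels and nerve, all lower in KO. Of the lists, 1 of 21 modification genes was higher and 5 lower there, 4 of 15 processing genes higher and 3 lower, 2 of 10 receptors higher, 1 of 8 degradation genes higher and 3 lower, and 1 of 15 basement membrane genes lower, where 8.0% of all genes were higher and 11% lower.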

How the data were processed

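RNA-seq libraries of 12 organoid samples were analysed. The authors deposited raw read counts per gene, which were used for every test here. They also deposited normalized values (a signal scaled by size factors) and a table of their own test of FEZ1-null against WT, which names no day, with log2 fold changes, a score (the Wald statistic) and p-values, from which only log2 fold changes and adjusted p-values of collagens were read. Reads were aligned to hg19 with STAR, counted with HTSeq and tested with DESeq2, per the submitters' processing notes; neither their versions nor the strand setting were found.

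Groups came from the labels. Genes were kept by edgeR's filterByExpr, and 17757 remained. Counts were scaled by TMM and fitted with edgeR 4.0.16 (quasi-likelihood F test, robust) in R 4.3.3, with 1 model over the 4 groups and 1 that also split day 10 by label code (B16 against B27 with B29). P-values were adjusted by the Benjamini-Hochberg method over all genes kept and called below 0.05. SEs are the log2 fold change over the square root of F. DESeq2 1.42.0, another scaling, no filter, B16 libraries only, a code term, a replicate block and leaving out each library were alternatives. Scripts were tested on simulated data. Exon lengths are from GENCODE v29 (GRCh38), a later build than the counts, and promoters from RefSeq (GRCh38.p14), which held 32 of the 44 genes; COL1A1, COL1A2, COL2A1 and COL3A1 are among those not matched.

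Collagens named include up to 12 of those called in each comparison, by size of the log2 fold change, the uncalled ones with the smallest p in each class, the highest by CPM in each class, the chains of types I, IV and VI, and those under the filter. The members and gene lists were chosen with earlier results of these data known. Same-numbered replicates were checked for pairing, which the check could not decide, and the main fits used none.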

Additional observations from a re-analysis of the deposited data

Results flagged for a closer look

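For 6 collagen genes, the effect of genotype at day 10 differed between label codes by the test of the difference itself (edgeR's quasi-likelihood test, log2 fold change of KO over WT within B16 minus that within B27 and B29). COL11A2 had a difference of -4.82 ± 0.43 (adjusted p 0.000227), COL20A1 one of -4.54 ± 0.62 (adjusted p 0.00231) and COL1A2 one of -1.73 ± 0.29 (adjusted p 0.00688), and these 3 kept their call in each of the 12 fits that left out 1 library. COL5A2 had -3.25 ± 0.53 (adjusted p 0.00562) and lost its call in 1 of the 12. COL25A1 had -2.30 ± 0.54 (adjusted p 0.0322) and lost it in 6, and COL5A3 had -5.35 ± 1.29 (adjusted p 0.0355) and lost it in 9. In each gene both B16 WT libraries were above every KO library. The meaning of the codes is not given, so what separates these libraries cannot be told apart.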

How the results depend on the processing

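Counts of collagens called between genotypes depended on the tool. DESeq2 called 5 at day 10, 6 at day 60 and 3 for the interaction, where edgeR called 0 each time. Over all genes, DESeq2 called 2.82%, 0.749% and 0.377%. With B16 libraries only, edgeR called 9 at day 10 and 6 for the interaction, where 11.5% and 5.15% of all genes were called. Leaving out 1 library gave 0 to 0 calls at day 10, 0 to 7 at day 60 (7 without WT replicate 1) and 0 to 4 for the interaction. It gave 6 to 16 for KO against WT within B16, 0 to 0 within B27 and B29 and 4 to 12 for the difference between codes. For B16 against the other codes it gave 7 to 12 in WT and 0 to 8 in KO, where DESeq2 and no filter gave 2. Between days it gave 23 to 28 in KO and 23 to 30 in WT, and within B16 26 to 30 in KO and 25 to 32 in WT. With all libraries, edgeR called 19.0% of all genes for KO against WT within B16 and 5.95% for the difference between codes. Between codes it called 16.8% in WT and 3.01% in KO, where DESeq2 called 8.88%. A replicate block gave 0 calls at day 10, at day 60 and for the interaction, and 26 between days in each genotype. Same-numbered libraries had correlations of -0.10 to 0.30. At day 60, 2 libraries per group fix the size of the correlation, and at day 10 group means mix label codes. The check therefore cannot decide whether the numbers pair libraries. Counting types XV and XVIII with the basement membrane class gave 387 and 527 CPM in KO and WT at day 60 and 1381 and 1283 CPM in KO and WT at day 10, and left 808 CPM in KO at day 60 and 777 and 775 CPM in KO and WT at day 10 for the others. Leaving out 1 library, the day 10 log2 fold change of COL4A3 ranged from -0.62 to 0.0046 (without KO replicate 2) and that of COL4A4 from -0.031 (without KO replicate 3) to 0.34, with -0.30 in B16 only; both have few counts, as do COL3A1 and COL8A1 at day 10, and depth limits them. The cause of these shifts was not tested.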
